A study of Mus musculus with 4 samples.

Results

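Apoe, Psap and Cd74 are known for high expression in macrophages, and their products act in lipid transport, in lysosomes and in antigen presentation. In a table of mouse heart RNA, captured by an antibody that binds N4-acetylcytidine (ac4C), these 3 genes were covered by 4 of 558 distinct regions, taken as every region that overlaps a gene with 1 of the 3 names. Apoe had 1 region, Psap had 2 and Cd74 had 1. All 4 regions passed the filter on low counts. The genes were chosen with earlier results of these data known.

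The libraries came from whole hearts of C57BL/6 mice, 2 from NAT10 knockout hearts and 2 from control hearts. All 4 carried the treatment label HFD+STZ+Exercise. The series concerns diabetic cardiomyopathy, and since both groups share that treatment and the exercise, neither was compared. The labels used here do not say in which cells NAT10 was deleted, which alleles the controls carried, how old the mice were, or that each library was 1 animal, so a p-value measures the spread between these libraries, which may be technical. Counts over the table summed to 920818 and 693922 in the knockout libraries, against 674687 and 686323 in the control libraries, and no check of the labels by the targeted gene is given, as Nat10 was not analysed here.

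N4-acetylcytidine is a cytidine that carries an acetyl group, and NAT10 is the acetyltransferase that places it on ribosomal RNA, transfer RNA and messenger RNA. Apolipoprotein E coats lipoproteins and hands their lipid to cells through receptors of the LDL receptor family, and macrophages release it as they export cholesterol. Prosaposin, the product of Psap, is cut in lysosomes into saposins, small proteins that present sphingolipids to the enzymes that degrade them. CD74 is the invariant chain, which blocks the groove of MHC class II molecules until they reach endosomes, where proteases remove it. In the heart, CD74 and MHC class II are best known from macrophages and dendritic cells, while prosaposin is made by most cell types. All values are of captured RNA, with no uncaptured libraries used here, and RNA abundance, ac4C and capture cannot be told apart as the source of a difference. In whole hearts, fewer cells of a type and less RNA per cell cannot be told apart.

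Tracts in which a C is followed by any pair of bases, again and again (CNN repeats), have been described for ac4C-rich messenger RNA in human cells. The longest such tract in the coding sequences of Apoe and Psap is shown, with the repeated C in capitals. It is the stretch of each coding sequence that comes closest to that pattern, and untranslated regions were not searched.
Apoe: CaaCccCatCatCacCcc
Psap: CgcCctCgcCctCttCgcCagCct
Both are read from GENCODE M21 transcripts (GRCm38), 5′ to 3′ on the sense strand, with bases counted from 1 at the start codon. The Apoe tract has 6 repeats at coding bases 897 to 914, in the last of 4 exons (chr7:19696402-19696419, minus strand). The Psap tract has 8 repeats at coding bases 6 to 29, in exon 1 of 15 (chr10:60277748-60277771, plus strand). In both, the repeated C is the last base of its codon. Only the sense strand was searched, in all 3 frames.

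Tracts of these lengths are common. Among 3245 mouse coding sequences within 10% of the length of Apoe (933 bases), 45.8% held a tract at least as long. For Psap (1671 bases) the share was 25.8% of 2066 sequences. The longest tract of Cd74 had 4 repeats, a length reached by 96.6% of 1699 sequences near its 837 bases. The table does not give the positions of the captured regions within the genes, so whether they hold these tracts is not known here.

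The comparison asks whether captured RNA of these genes differed in NAT10 knockout hearts, all mice having been exercised. Apoe passed the test as lower in knockout, a call that did not hold in every setting tried. Cd74 had the higher values in knockout without passing the test, and the Psap regions had lower values in knockout without passing. Levels below are in CPM, counts divided by the total of the library in the table and put on a common scale, with TMM factors that set the bulk of regions equal between libraries. They are given per region and not per length, so they are not compared between genes.

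The Apoe region held 191 and 116 counts in knockout libraries 1 and 2, against 203 and 167 counts in control libraries 1 and 2. After scaling this was 175 and 182 CPM in knockout, against 328 and 243 in control. Both knockout libraries lay below both control libraries, and the controls stood further apart from each other than the knockouts did. The group means were 178 ± 4.80 in knockout and 286 ± 59.9 in control (SD, n = 2 each), a level 1.60-fold lower in knockout. The log2 fold change was -0.68 ± 0.18 (SE; 95% interval -1.04 to -0.32), with an adjusted p = 0.0197 by edgeR's quasi-likelihood test over all 558 regions. Apoe was thus 1 of 9 regions called lower (1.61% of the 558), while 2.33% were called higher. It was the 24th lowest of 558 by fold change and had the 16th smallest p. The table lists Apoe on chromosome 7 from 19430034 to 19433113 on the minus strand, on a build that differs from GRCm38.

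The Apoe call was lost when any 1 of 3 libraries was left out. It ended when control replicate 1 was left out, at -0.45 with an edgeR adjusted p of 0.191. Leaving out knockout replicate 1 gave -0.65 (adjusted p = 0.211), and knockout replicate 2 gave -0.70 (adjusted p = 0.0994). In these fits the lone sample of a group is assumed to vary like the other group. It also ended with scaling to the totals alone (-0.53, adjusted p = 0.644), with scaling to the 18S ribosomal RNA region (-0.47, adjusted p = 0.918) and with the DESeq2 Wald test (-0.69, adjusted p = 0.318). Those 2 scalings moved the median of all regions to 0.15 and 0.22, against 0.01 as reported, and relative to that median Apoe stood at -0.69 in both.

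**Figure D1:**
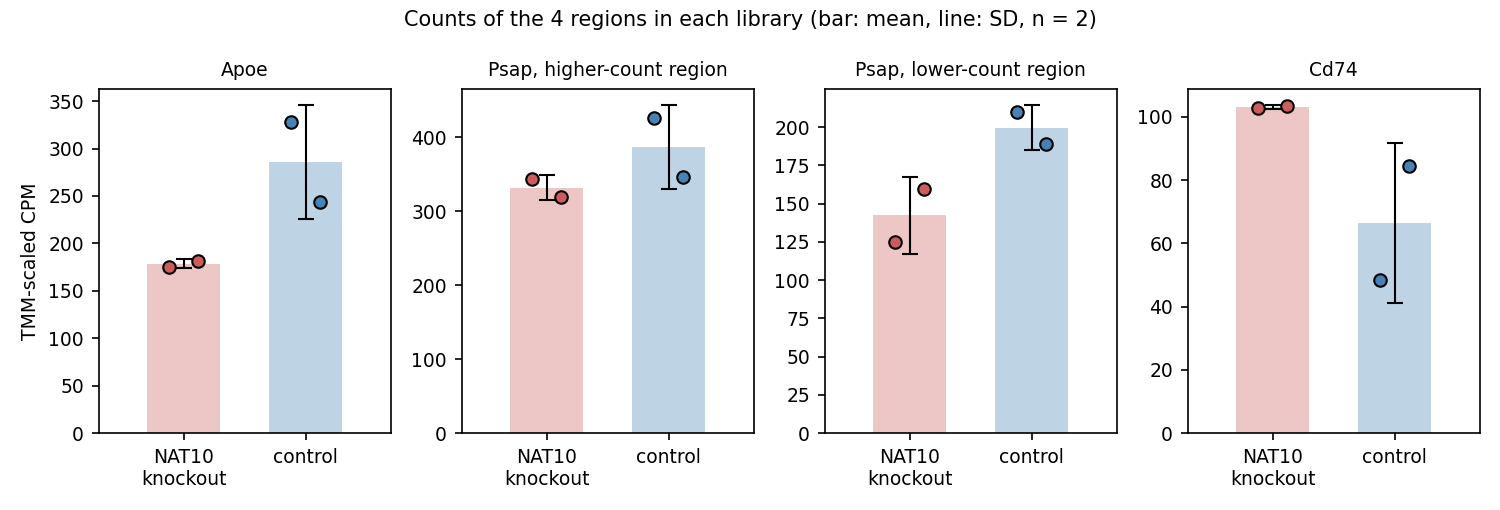
TMM-scaled CPM of the Apoe, Psap and Cd74 regions in each library, with NAT10 knockout on the left and control on the right of each panel (points: libraries, bar: mean, line: SD, n = 2). The 2 knockout libraries of Apoe, at 175 and 182, lie below the control libraries at 328 and 243, and those of Cd74, at 103 each, lie above the controls at 48.5 and 84.4.

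Psap had 2 regions, told apart here by their counts. The higher-count region held 375 and 204 counts in knockout libraries 1 and 2, against 264 and 238 in control libraries 1 and 2. Scaled, this was 344 and 320 CPM in knockout, against 426 and 347 in control. The knockout values were below both controls, but the gap to control replicate 2 was small. Means were 332 ± 16.9 in knockout and 386 ± 56.5 in control (SD, n = 2 each). The log2 fold change was -0.21 ± 0.15 (SE; 95% interval -0.51 to 0.09; edgeR adjusted p = 0.469). Leaving out control replicate 1 put it at -0.058 (edgeR adjusted p = 0.951), and leaving out control replicate 2 put it at -0.37 (adjusted p = 0.198).

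The lower-count Psap region held 136 and 102 counts in knockout, against 130 and 130 in control. Scaled values were 125 and 160 CPM in knockout, against 210 and 189 in control. The groups again did not overlap, with knockout replicate 1 the lowest of the 4 libraries. Means were 142 ± 24.9 in knockout and 200 ± 14.6 in control (SD, n = 2 each). The log2 fold change was -0.51 ± 0.20 (SE; 95% interval -0.91 to -0.10) and did not pass (edgeR adjusted p = 0.142, unadjusted p = 0.0156). Leaving out knockout replicate 1 put it at -0.32 (edgeR adjusted p = 0.666). The interval covers a fall close to that of Apoe as well as a small one.

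Summed over both regions, Psap stood at -0.28 ± 0.14 (edgeR adjusted p = 0.225 over 388 genes or merged genes). It passed without control replicate 2, at -0.42 (edgeR adjusted p = 0.0252), and stood at -0.14 once control replicate 1 was left out (adjusted p = 0.822). Whether the Psap regions changed unequally was tested with edgeR's test over the 49 genes that have at least 2 regions of their own. The fold changes of the higher-count and the lower-count region differed by 0.29 on the log2 scale, with an adjusted p = 0.594. The edgeR test called 0 of the 49 genes, and 4 had an unadjusted p below 0.05. Within a library, the higher-count region exceeded the lower-count one by 1.46 and 1.00 (log2) in knockout, against 1.02 and 0.87 in control. These groups overlap, as knockout replicate 2 lies between the controls. The table lists both regions with Psap on chromosome 10 from 60113450 to 60138376, plus strand.

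Cd74 was the member with the fewest counts. Its region held 112 and 66 counts in knockout libraries 1 and 2, against 30 and 58 in control libraries 1 and 2. Scaled values were 103 and 103 CPM in knockout, against 48.5 and 84.4 in control. Both knockout libraries were above both controls and nearly equal to each other, and control replicate 1 was far below control replicate 2. Means were 103 ± 0.576 in knockout and 66.4 ± 25.4 in control (SD, n = 2 each), a level 1.55-fold higher in knockout. An SD from 2 libraries can be small by chance, so 0.576 does not show how precise the level is.

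The log2 fold change of Cd74 was 0.62 ± 0.28 (SE; 95% interval 0.05 to 1.19), which did not pass over all regions (edgeR adjusted p = 0.209, unadjusted p = 0.0332). It depended on the control libraries: the value was 0.29 without control replicate 1 (adjusted p = 0.851) and 1.08 without control replicate 2 (adjusted p = 0.0857). The region overlaps Cd74 but is listed with Mir5107, a microRNA gene that lies inside Cd74 on the same strand in GENCODE M21, on chromosome 18. The position in the table, 60945148 to 60945235, is that of the microRNA gene. No source used here states how strands were handled, and reads of a gene and of a microRNA inside it cannot be told apart by strand.

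Of the 4 regions, 3 had both knockout libraries below both controls, as did 22.2% of all regions, and 1 had both above, as did 25.3%. These shares are large, so separation of the libraries alone says little of these genes. Of the 16 counts behind the 4 regions, 12 were even numbers, and of the 11 that were below 200, 9 were even. Most counts below 200 in the table were even too, at 77.9% and 81.0% in knockout libraries 1 and 2. In control libraries 1 and 2 the shares were 82.4% and 83.3%. Counts therefore may not be independent molecules. With all counts halved, Apoe stood at -0.66 (edgeR adjusted p = 0.0393) and Cd74 at 0.62 (adjusted p = 0.214).

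**Figure D2:**
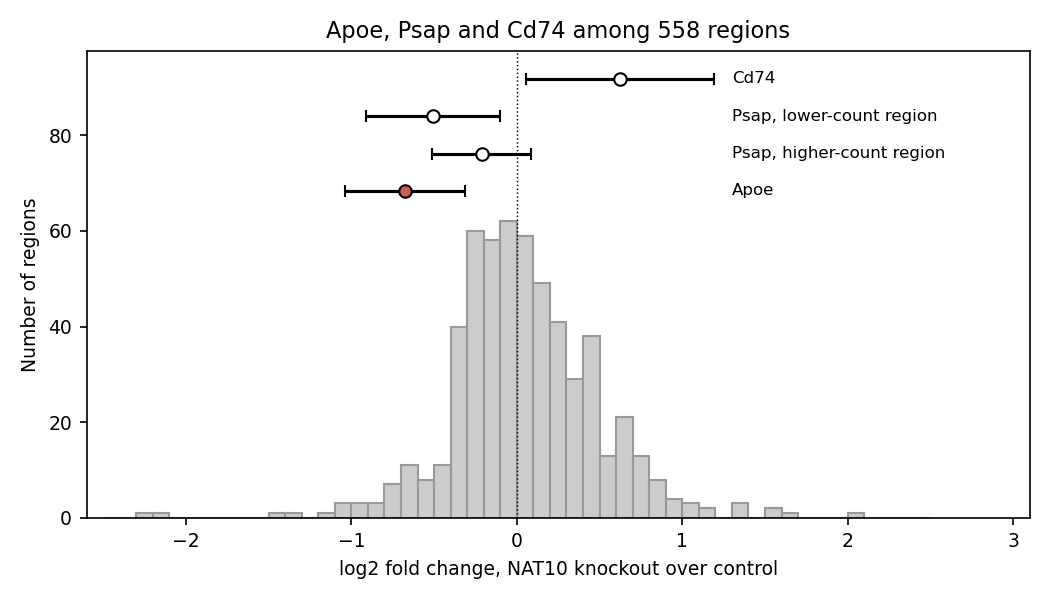
Histogram of the log2 fold change (NAT10 knockout over control) of all 558 regions, with Apoe, both Psap regions and Cd74 above it as points with 95% intervals; a filled point passed an adjusted p of 0.05. Apoe at -0.68 is filled and lies left of the bulk, the Psap regions lie at -0.21 and -0.51, and Cd74 lies to the right at 0.62.

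Ratios of members within a library need no scaling factor. Cd74 stood at -0.77 and -0.81 relative to Apoe (log2 ratio of counts) in knockout, against -2.76 and -1.53 in control. The ratio was thus higher in both knockout libraries, by 1.35 on average. Psap summed over its regions stood at 1.42 and 1.40 relative to Apoe in knockout, against 0.96 and 1.14 in control, a difference of 0.36. Cd74 relative to summed Psap stood at -2.19 and -2.21 in knockout, against -3.72 and -2.67 in control, a difference of 0.99. These 3 ratios did not overlap between the groups. They are built from the same members, whose scaled values already separated the groups, and any 2 of them give the third. How often ratios of other regions separate was not computed. Each of these 3 ratios had an exact two-sided permutation p = 0.333, the smallest that 2 against 2 libraries can give. After Benjamini-Hochberg adjustment over 4 ratios it was 0.444, so none could pass. The ratio of the Psap regions had an exact permutation p = 0.667. The difference for Cd74 over Apoe was 0.73 without control replicate 1 and 1.97 without control replicate 2. The difference for Cd74 over summed Psap was 0.46 and 1.51 with the same libraries left out.

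Other lysosomal genes were few in the table. Of 33 lysosomal enzyme genes, 2 were present, and 0 of these passed the edgeR gene test, in which 4.9% of the 388 genes or merged genes passed (1 of the 2 at an unadjusted p below 0.05, and 0 by DESeq2). Their median log2 fold change was -0.10, where the median of all genes was 0.05. Levels of these genes are CPM from counts summed per gene. Cathepsin D (Ctsd), the aspartic protease best known for cutting prosaposin, had 534 and 453 CPM in knockout, against 626 and 605 in control. Both knockout values were below the controls, at -0.31 ± 0.14 (edgeR adjusted p = 0.183). That region also overlaps Gm49369 and is listed with Ifitm10, so its counts cannot be assigned to Ctsd alone.

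Cathepsin B (Ctsb), a cysteine protease, had 183 and 184 CPM in knockout, against 153 and 186 in control. The groups overlapped, at 0.11 ± 0.21 (edgeR adjusted p = 0.787). Of 27 genes of the lysosome membrane, sorting and biogenesis, 1 was present. Lamp1, the abundant membrane glycoprotein of lysosomes, had 63.3 and 68.7 CPM in knockout, against 108 and 39.4 in control. Control replicate 1 and control replicate 2 lay on either side of both knockouts, at -0.15 ± 0.38 (adjusted p = 0.848).

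Of 22 further genes of apolipoproteins and lipoprotein metabolism, 2 were present and 0 passed the edgeR gene test (1 at an unadjusted p below 0.05, and 0 by DESeq2), with a median of 0.04. Lpl, the lipoprotein lipase that frees fatty acids from triglyceride, had 3 regions. In all 3 both knockout libraries were above both controls, as in 25.3% of all 558 regions, and regions of the same gene may not be independent. Summed, Lpl had 5103 and 5099 CPM in knockout, against 4016 and 3972 in control. It stood at 0.35 ± 0.15 (edgeR adjusted p = 0.13), a fitted direction opposite to that of Apoe. Cd36, a fatty acid and lipoprotein scavenger receptor, stood at -0.27 ± 0.14 over 2 regions (adjusted p = 0.255), and passed without control replicate 2 at -0.40 (adjusted p = 0.0449). With control replicate 1 left out it stood at -0.15 (edgeR adjusted p = 0.812). Of 14 genes of apolipoprotein E receptors and binding proteoglycans, 1 was present, the proteoglycan gene Hspg2. It stood at 0.30 ± 0.32 (adjusted p = 0.632), in a region listed with Ldlrad2, at 0.075 without control replicate 1 and at 0.57 without control replicate 2. None of 8 neighbours of Apoe on its chromosome was in the table (0 of 8).

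**Figure D3:**
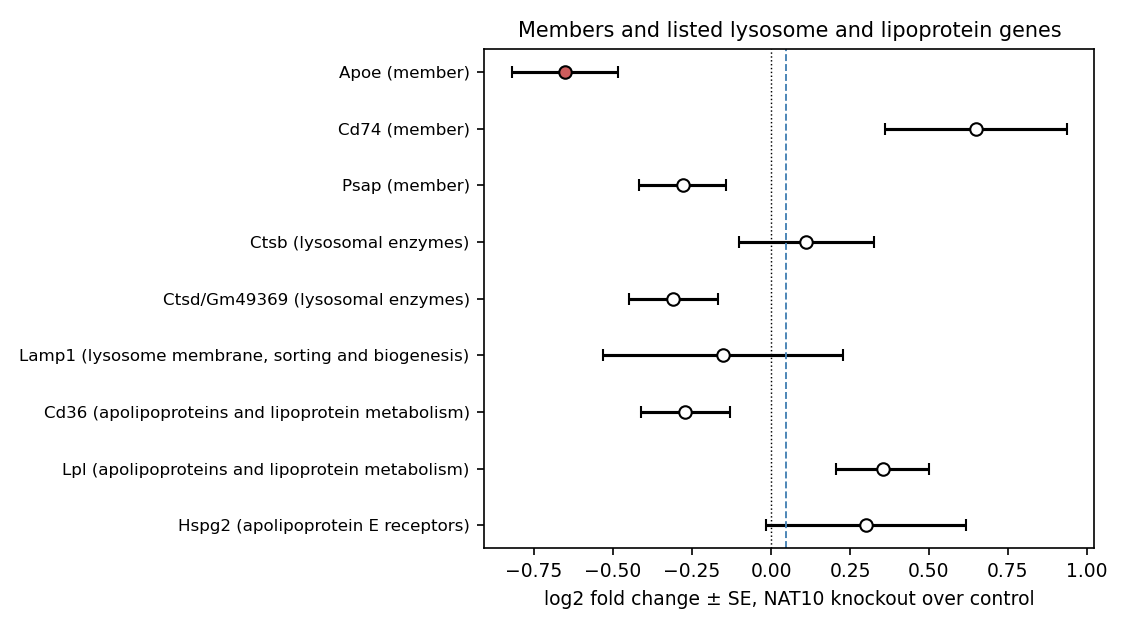
Log2 fold change ± SE (NAT10 knockout over control, counts summed per gene) of the members and of the listed lysosome and lipoprotein genes in the table; a filled point passed an adjusted p of 0.05, and the dashed line is the median of all genes at 0.05. Apoe at -0.65 is the filled point, and Cd74, Ctsb, Lpl and Hspg2 lie to the right of the dashed line.

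The name macrophage genes could not be checked in these data. The table held 0 of 31 macrophage markers, among them Adgre1, Cd68, Csf1r and C1qa, and 0 of 11 dendritic and B cell markers. It held 0 of 15 further genes of MHC class II presentation, in which Cd74 acts, and 0 of 12 of MHC class I presentation. These genes have no region in a table of 558 regions, which does not show that their RNA was absent from the hearts. Of the 14 cardiomyocyte markers, 9 were present, with a summed level of 98473 and 107890 CPM in knockout, against 101140 and 100647 in control. Myh6 (15 regions) and Ttn (22 regions) make most of that sum. Of the 9 markers, 3 rose and 1 fell by the gene test, which 4.9% of all 388 genes or merged genes passed. The median of the 9 was 0.09. The 1 that fell was Nppa, in a region that also overlaps Gm13054, at -2.22 ± 0.14 (edgeR adjusted p = 1.7e-49). The Pln region also overlaps Cep85l and Gm47644. With control replicate 1 left out, Myl2 and the region listed with Pln no longer passed (0.56 and 0.71, edgeR adjusted p of 0.113 and 0.138), and with knockout replicate 2 left out, Myl2 and Myl3 did not (0.50 and 0.64, edgeR adjusted p of 0.056 and 0.0687). The tissue label heart thus had its muscle markers in all 4 libraries. Fibroblast, endothelial, and adipocyte, liver and Schwann cell markers were at 0 of 13 each. Markers of smooth muscle and pericytes (3 of 10) had a summed level of 2307 and 2252 in knockout, against 2780 and 2591 in control. The 2 knockout libraries were thus lower in that sum, of which Des, also a muscle gene, makes most, and 0 of the 3 passed the gene test, with 2 at an unadjusted p below 0.05 and 0 by DESeq2 (Des -0.30 ± 0.14, Rgs5 0.16 ± 0.25 and Abcc9 1.71 ± 0.57, edgeR adjusted p of 0.197, 0.738 and 0.052). The Abcc9 region, listed with Kcnj8, held only 52 and 39 counts in knockout, against 4 and 18 in control. Abcc9 stood at 3.04 with control replicate 2 left out, a fit whose only control library held those 4 counts. With control replicate 1 left out it stood at 1.07. Des passed with upper-quartile factors, at -0.40 (edgeR adjusted p = 0.00315). The 1 blood marker of 14, Hba-a2, had 66.7 and 24.3 in knockout, against 40.1 and 55.5 in control (-0.01 ± 0.52). The part of cell composition in the Apoe and Cd74 values was not tested.

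By root mean square difference of centred log2 CPM over the 4 libraries, the regions of other genes most like Apoe were those of Gm13456 (0.01), Arih1 (0.05) and 1 region of Jph2 (0.05). Gm13456 had 47.7 and 50.2 CPM in knockout, against 90.5 and 67.0 in control, a like pattern at -0.68 (edgeR adjusted p = 0.257). That Jph2 region had 97.2 and 107 in knockout, against 191 and 150 in control, and fell (-0.74 ± 0.22, adjusted p = 0.0407). Another Jph2 region was the nearest to the higher-count Psap region (0.04), followed by Wnk1 and the region over Ckm and A930016O22Rik (0.05 each). Nearest to the lower-count Psap region were Vaultrc5 (0.07), Rplp0 and Gm6560 (0.08 each). Nearest to Cd74 were Acat1 (0.09), Gm8722 and Tmem201 (0.11 each). With 4 libraries and 558 regions, close patterns are easy to find, and the distances are a description.

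The authors' deposited table gives its own comparison as control over knockout, so its positive values mean lower in knockout. In the authors' deposited table Apoe had a log2 fold change of 1.13 (p-value 0.164) and Cd74 of -1.26 (p-value 0.108), the same directions as the fit here. The authors' deposited table put the Psap regions on opposite sides, the higher-count one at -1.24 (p-value 0.0278) and the lower-count one at 0.89 (p-value 0.0222). The higher-count region is thus higher in knockout there, opposite in sign to -0.21 ± 0.15 here. How the authors' values were computed is not known here, so they may not be the same measure as the fit. A p-value below 0.05 was given to 27.2% of all regions in the authors' deposited table, and the q-value of all 4 regions was 1.

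**Figure D4:**
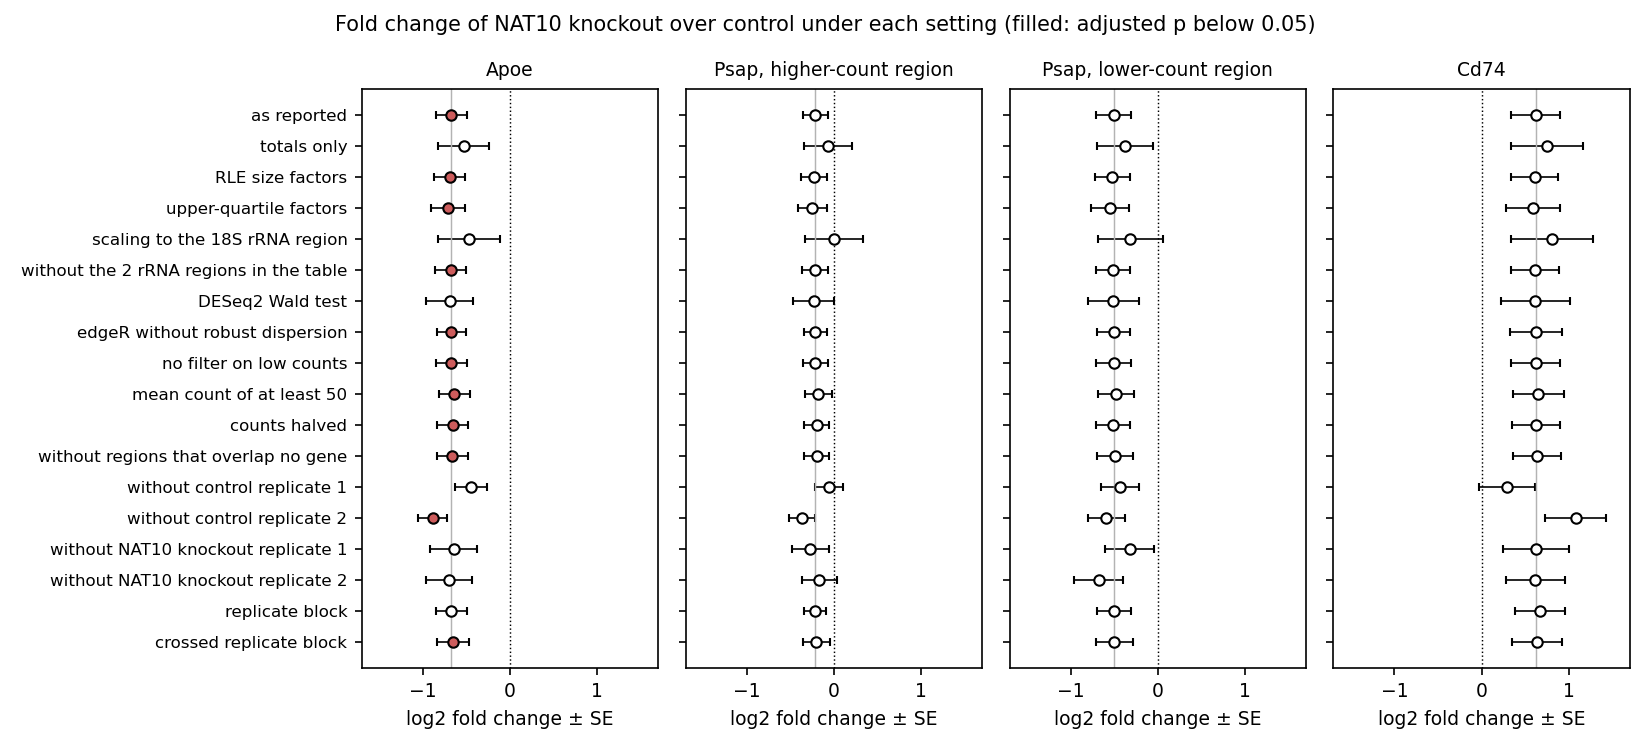
Log2 fold change ± SE (NAT10 knockout over control) of the Apoe, Psap and Cd74 regions as reported and under each alternative setting; a filled point passed an adjusted p of 0.05. Apoe stays left of 0 throughout, from -0.89 to -0.45, Cd74 stays right of 0, from 0.29 to 1.08, and the higher-count Psap region comes closest to 0 with scaling to the 18S region.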

How the data were processed

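Per the labels' protocols, Trizol RNA of hearts was depleted of ribosomal RNA and sequenced. Capture with an ac4C antibody is stated by the series text. The 2 most counted regions, of ribosomal RNA, still held 40.7% and 43.8% of counts in knockout libraries 1 and 2. In control libraries 1 and 2 they held 43.1% and 42.4%. FastQC, Salmon and the build mm10 appear in the submitters' processing notes, with no roles. The counts per region are as deposited, not normalised per the file headers; the authors' log2 fold change, p-value and q-value are in the same table. No source used here gives the positions of the regions or the tools that called and counted them.

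Of 652 lines, 94 repeated a region and were removed. Of 377 listed nuclear genes, 7 had the same start in GENCODE M21 (GRCm38), so positions are printed as the table gives them. With scaling to totals alone, replicates differed beyond counting noise (chi-square per degree of freedom 16.3 between knockouts, 4.51 between controls). That measure used no TMM factors and included the ribosomal RNA regions, so it is not the spread left in the fit. The design assumed genes, and regions became the unit.

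The count test was that of edgeR 4.0.16, under R 4.3.3 (filterByExpr, which removed 0 regions and 2 summed genes; TMM factors 1.18 and 0.92 in knockout, 0.92 and 1.00 in control; robust glmQLFit and glmQLFTest; Benjamini-Hochberg adjusted p below 0.05). The biological coefficient of variation was 12.6%. DESeq2 1.42.0 was an alternative. Gene lists used counts summed per gene. Ratios used an exact permutation test. Steps were tested on simulated data. Members and lists were chosen with earlier results of these data known. Named genes were the members, list genes by level, number and test, and the 3 regions nearest to each member (log2 CPM, prior count 2). A gene first fixed in the lysosomal enzyme list was taken out of it and is not reported here.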

Additional observations from a re-analysis of the deposited data

How the results depend on the processing

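In the 17 alternatives run on the 4 regions, Apoe and both Psap regions kept values below 0 and Cd74 above 0, and neither Psap region nor Cd74 passed in any. Apoe was at -0.53 with totals alone, -0.47 with 18S scaling, -0.69 with DESeq2 and -0.68 with the replicate block (edgeR adjusted p = 0.345), and lost its call in each. It ran from -0.89 to -0.45 when 1 replicate was left out. Same-numbered libraries did not deviate together (correlation of same-numbered deviations -0.16). With so few libraries this cannot show whether the replicate numbers pair the samples. The crossed block left Apoe called at -0.65, but it was added after seeing the data and lends that call no support. The number of regions called, 22 as reported, was 8 with totals alone, 6 with 18S scaling, 5 with DESeq2, 1 with the replicate block, 42 with the crossed block and 13 to 37 without 1 replicate. Counts near 50, as for Cd74 in control, limit what 2 libraries can show.

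Of 160 values of list genes and summed Psap, 17 changed sign, none of them called. Of the cardiomyocyte calls, Myl2 lost its own with scaling to the 18S rRNA region (0.73), without control replicate 1 (0.56) and without knockout replicate 2 (0.50), Myl3 with that scaling (0.87) and without knockout replicate 2 (0.64), and the region listed with Pln without control replicate 1 (0.71); the direction held in each. Without 1 replicate Ctsb ran from -0.022 to 0.25, Lamp1 from -0.73 to 0.74, Myh6 from -0.072 to 0.067, Ttn from -0.015 to 0.022, Rgs5 from -0.14 to 0.55 and Hba-a2 from -0.99 to 0.47. With 18S scaling Lamp1 was 0.047 and Hba-a2 0.23, and Hba-a2 was 0.12 with totals alone. Myh6 was -0.043 with RLE and -0.10 with upper-quartile factors, and Ttn -0.039 and -0.092.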
